A study of Drosophila melanogaster with 2 samples.

Results

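STAT92E peaks that lay close together on the autosomes are described here. A peak of the deposited list was taken as clustered when another peak on the same autosomal arm (2L, 2R, 3L, 3R or chromosome 4) lay at most 20000 bp away, counted as the bases between the end of one peak and the start of the next. The 4 peaks at hyd were left out before the distances were measured, because they alone held 6.09 times as many ChIP reads as all clustered peaks together. This left 987 autosomal peaks, of which 398 (40.3%) were clustered and 589 were isolated. The clustered peaks formed 169 clusters and made up 26.8% of the 1487 peaks in the list.

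STAT92E is the transcription factor of the Drosophila JAK/STAT pathway. The secreted ligand Upd binds the receptor Domeless, the receptor-bound kinase Hopscotch phosphorylates STAT92E, and the activated factor enters the nucleus and binds DNA. In the adult midgut the pathway drives proliferation and differentiation of intestinal stem cells. Transcription factors often bind several places around a gene, upstream of it and in its introns, and a ChIP-Seq peak marks a stretch of DNA that was recovered with the factor more often than in unselected chromatin.

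The data came from 1 ChIP library, made with a mouse antibody against STAT92E, and 1 input library made without immunoprecipitation. Both were from about 400 adult midguts of W1118 background in which esg-Gal4 with Gal80ts expressed Upd and STAT92E in progenitor cells for 10 days at 29°C. Whole midguts were used although the driver acts in progenitor cells, and STAT92E itself was overexpressed, which limits the sample as a model of the normal gut. There was no second ChIP library and no ChIP from another genotype, so the values carry no error between experiments, no test between conditions was possible, and the list holds no expression values against which the tissue could be checked. Reads are given as normalized by the authors, who scaled the libraries to each other. No library totals come with the list, which leaves the depth unknown, and all intervals cover counting error only. The peaks were called on the ratio of ChIP to input, so the reads and ratios of the members are a description and not a test.

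Most clusters were small. Of the 169 clusters, 127 (75.1%) were pairs, 30 held 3 peaks, 8 held 4, 2 held 5 and 2 held 6. The pairs accounted for 254 of the 398 members. A cluster spanned between 450 bp and 56620 bp, with a median of 10410 bp, and 25 clusters were longer than 20 kb. Peaks covered little of this length. Together the clusters spanned 2061 kb, and the peaks within them filled 3.12% of it.

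Neighbouring members were separated by 60 to 19940 bp. The median of the 229 gaps was 8760 bp, with quartiles of 3160 and 13110 bp. Short gaps were the most frequent per unit of distance. There were 22 gaps up to 1 kb, 15 from 1 to 2 kb, 13.0 per kb from 2 to 5 kb, 10.8 per kb from 5 to 10 kb and 9.90 per kb from 10 to 20 kb. Past the joining distance the frequency continued to fall without a break, to 7 per kb from 20 to 30 kb, 6.35 per kb from 30 to 50 kb and 4.58 per kb from 50 to 100 kb. The limit of 20 kb therefore cuts through a continuous range of gaps.

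**Figure D1:**
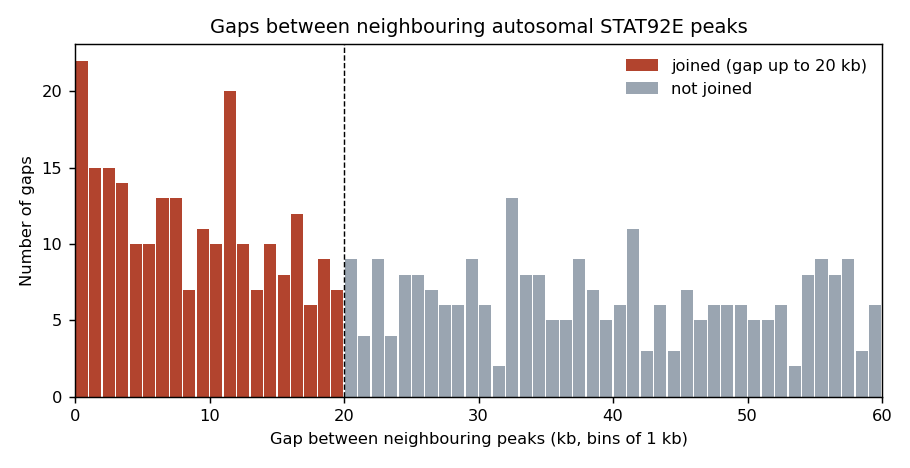
Number of gaps (y axis) by gap length in kb (x axis, bins of 1 kb, shown up to 60 kb) between neighbouring autosomal peaks other than hyd; red bars are gaps joined into clusters, grey bars gaps that were not. The first bin holds 22 gaps and is the highest of those shown, and the frequency falls across the dashed line at 20 kb without a break.

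The gaps nearest to the limit show what the rule kept and left. Just inside lay gaps of 19940 and 19880 bp, both in the cluster of pointed (pnt), and one of 19870 bp on 3L. The last joined a peak of 21.4 normalized ChIP reads, from 5125620 to 5125719, to one of 57.6 reads from 5145590 to 5145699. Just outside lay a gap of 20110 bp on 2L, between a peak of 36.5 reads ending at 162579 and one of 87.1 reads starting at 182690, and gaps of 20210 and 20350 bp on 3L. The gap of 20210 bp, between a peak of 43.0 reads ending at 10948469 and one of 60 reads starting at 10968680, kept apart clusters that a slightly longer limit would have joined. The gap of 20350 bp separates a peak of schizo (siz, a guanine nucleotide exchange factor for Arf proteins), with 123 reads, from a peak of 128 reads that starts at 21087820. The other siz peak, with 122 reads, was 20990 bp from its nearest neighbour, so that neither siz peak is a member.

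At the other end of the range, some members were almost continuous. The smallest gap, 60 bp, was on 3L between a peak from 247390 to 247579 and one from 247640 to 247839. They held 62.9 and 270.3 normalized ChIP reads. Gaps of 100 bp occurred at 2 places on 2R. At the first, the peaks from 7134850 to 7135029 and from 7135130 to 7135309 held 65.3 and 39.9 reads, and at the second, the peaks from 7669250 to 7669619 and from 7669720 to 7669889 held 139.8 and 45.0 reads. The sheared chromatin was mostly 200 to 400 bp long. The summits of 6 neighbouring pairs, among them one at windpipe (wdp) and one at pnt, were at most 400 bp apart, with a minimum of 265 bp. Reads of the same fragments could fall in both peaks there, which was not tested.

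Longer clusters were chains of gaps of very different lengths. Of the 42 clusters of 3 or more peaks, 11 had a gap of at most 1 kb. When peaks were joined only up to 10 kb, 10 of the 42 stayed whole, and up to 5 kb, 6 did. Among the 12 clusters of 4 or more peaks, only the Socs36E cluster stayed whole at 5 kb, and at 10 kb this cluster and one on 3R from 25888050 to 25900779 did. Of the 127 pairs, 76 were joined by a gap of at most 10 kb.

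Clusters were found on every large arm. Clustered peaks were 89 of 239 (37.2%) on 2L, 91 of 201 (45.3%) on 2R, 112 of 275 (40.7%) on 3L and 106 of 263 (40.3%) on 3R. The median number of ChIP reads in a member ranged only from 56.2 on 2R to 65.4 on 3R. Chromosome 4 had 9 peaks, and 0 of them was clustered. Peaks are clustered through their neighbours and so are not independent, and no limit is given for the share in so few peaks. The smallest gap there was 56020 bp, although the peaks had between 44.6 and 158.9 normalized ChIP reads. In windows of 1 Mb, the most members, 12 of 16 peaks in 6 clusters, were on 2R between 7 and 8 Mb, followed by 11 of 15 peaks on 3R between 25 and 26 Mb, the window of the kayak (kay) cluster. Of the 100 windows with a peak, 20 held no member.

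The median clustered and isolated peak had about as many ChIP reads. The median member had 59.8 normalized ChIP reads (range 19.0 to 1420) and 0.364 input reads. The median isolated peak had 58.1 ChIP reads (range 18.9 to 627.1) and 0.291 input reads. The highest log2 ratio within a peak, ChIP over input, had medians of 5.38 and 5.34, and the peak length medians of 150 and 140 bp. More than 200 ChIP reads were found in 23 of 398 clustered peaks (5.78%) and in 8 of 589 isolated peaks (1.36%). Among all 987 autosomal peaks other than hyd the share was 3.14%, and among all listed peaks 3.63%. The limit of 200 was set after the list had been examined, so these shares are a description. The 23 peaks lay in 18 clusters, so they are not independent of each other, and 15 of them belong to the target genes selected by the study. Clustered peaks also held 46.8% of the ChIP reads of these 987 peaks, against 40.3% of their number.

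**Figure D2:**
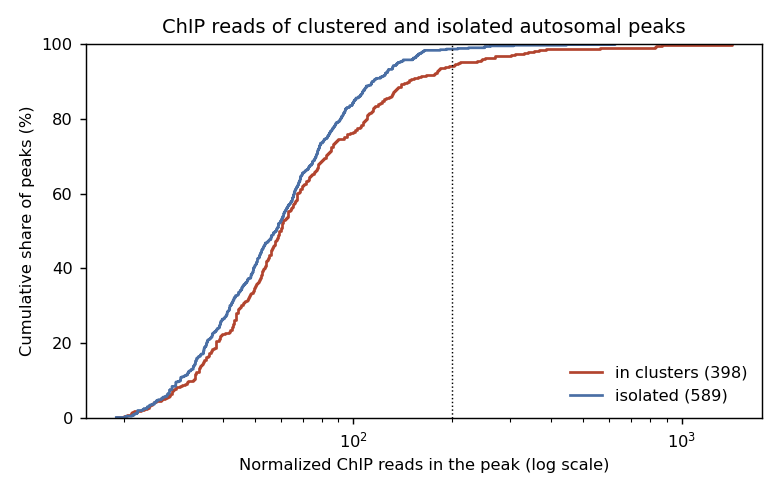
Cumulative share of peaks in percent (y axis) by normalized ChIP reads in the peak (x axis, log scale) for the 398 clustered (red) and 589 isolated (blue) autosomal peaks; the dotted line marks 200 reads. The curves run close together at their medians of 59.8 and 58.1 reads and lie apart at the upper end, where 5.78% of clustered and 1.36% of isolated peaks exceed 200 reads.

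By the thresholds of the list, other than the input, the members stood near the share of all listed peaks. The listed FDR was 0 for 72.1% of the members, against 70.5% of all listed peaks and 71.1% of isolated autosomal peaks, and the -log10 Poisson p was at its cap of 100 for 30.4% of the members, against 27% of all and 25.3% of the isolated. Of the members, 39 (9.80%) were in the first 10% of the list by rank, against 9.95% of all and 7.98% of isolated autosomal peaks. No input read was found in 29.9% of the members, close to the 30.6% of isolated autosomal peaks and under the 38.3% of the whole list. The whole list also holds the peaks of X, hyd and other sequences, and over the 987 autosomal peaks other than hyd the share was 30.3%. A fold of ChIP over input, or its lower bound, of at least 50 was reached by 44 members (11.1%), against 10.6% of all and 7.47% of the isolated. Pooled over peaks, however, ChIP over input was 88.0 in the members and 108.0 in the isolated autosomal peaks. These differences were not tested. In 349 members (87.7%) the input was at or under 3 reads, which correspond to 1.75 normalized reads, and their fold is a lower bound. In the other 49, the fold ranged from 30.4 to 136.2 with a median of 52.6, against a median of 52.7 in the 51 isolated peaks with as much input.

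On the X chromosome the same rule gave smaller clusters, with similar gaps and ChIP reads but lower log2 ratios. There, 71 of 211 peaks (33.6%) formed 33 clusters, none with more than 3 peaks. The median gap was 9610 bp and the median member had 57.8 normalized ChIP reads. More than 200 reads were found in 3 of the 71 clustered (4.23%) and 2 of the 140 isolated X peaks (1.43%). In the 28 X pairs the stronger peak held a median of 60.1% of the reads, against 65.9% in the 127 autosomal pairs. The difference between X and autosomes was not tested, because peaks of 1 library are not replicates.

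Within a cluster the ChIP reads were unequally shared. Over all 169 clusters the strongest peak held a median of 61.7% of the reads. In pairs it held a median of 65.9%, with quartiles of 56.5% and 73.9%, where an equal share would be 50%, the lowest value that the stronger peak can have. The stronger peak of a pair had a median of 1.93 times the reads of the weaker. It had at least 2 times as many in 61 pairs (48.0%) and at least 4 times as many in 12. Among neighbouring peaks more than 20 kb apart, 274 of 753 (36.4%) also differed at least 2-fold, and the difference between these shares was not tested. The strongest peak held a median of 45.8% in clusters of 3 peaks and 43.6% in clusters of 4. In the clusters of 6 it held 32.2% and 34.4%.

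**Figure D3:**
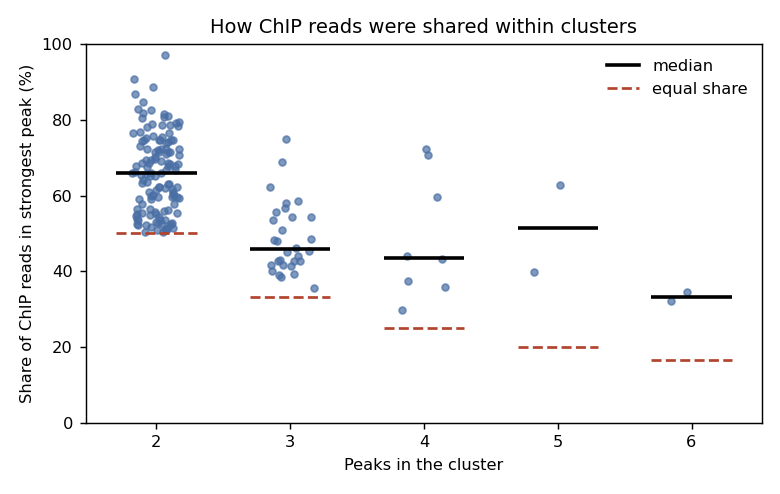
Share of the cluster's normalized ChIP reads held by its strongest peak in percent (y axis) by number of peaks in the cluster (x axis); each point is a cluster, black lines are medians and dashed red lines equal shares. In pairs the points run from 50.3% to 97.1% with a median of 65.9%, and the dashed line is the lowest value possible at each size.

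Many of these inequalities were larger than counting error. The share of the peak at the lower position was given an exact 95% binomial interval in each pair. The interval excluded 50% in 86 of the 127 pairs and included it in 41. Such intervals were not computed for neighbours outside clusters. The side was balanced, with the stronger peak at the lower position in 65 pairs and at the higher position in 62. In the 42 clusters of 3 or more peaks, the strongest peak was at an end of the cluster in 21 (50%). Pooled over these clusters, ends made up 84 of 144 places (58.3%). This pooled share gives larger clusters more weight, so it is not the expected value per cluster. In 15 of the 42 it held more than 50% of the reads.

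**Figure D4:**
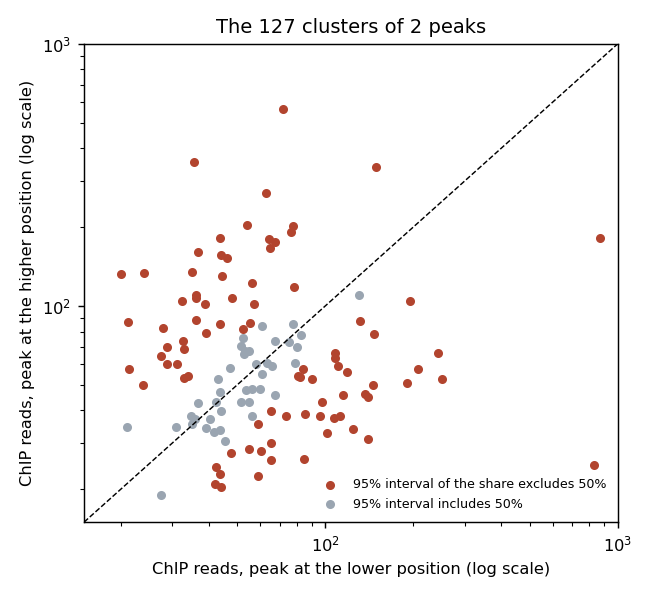
Normalized ChIP reads of the peak at the lower position (x axis, log scale) and of the peak at the higher position (y axis, log scale) for the 127 clusters of 2 peaks; red points are the 86 pairs whose share has an exact 95% binomial interval that excludes 50%, grey points the other 41, and the dashed line marks equal reads. The points scatter on both sides of the line without a trend along it.

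The reads of a peak showed little relation to those of its neighbour. Across the 229 neighbouring members, Spearman's rho between the ChIP reads of the peaks was 0.06, and it was 0.01 for the listed log2 ratio. At gaps up to 2 kb rho of the reads was 0.05 (37 neighbours), at 2 to 10 kb 0.14 (93) and at 10 to 20 kb 0.02 (99). These are descriptions across peaks of the same libraries. The typical ratio of stronger to weaker neighbour was also similar across gaps within clusters, with medians of 1.91, 1.88 and 1.96 in the 3 classes. Neighbours more than 20 kb apart had a lower median ratio of 1.65, and their rho of the reads was 0.01 (753 neighbours). The difference in ratio was not tested.

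The strongest peak of a cluster was usually also the longest and densest. It was the longest, or tied for it, in 129 of 169 clusters, had the most ChIP reads per bp in 133 and the highest log2 ratio in 115. Its median length was 170 bp, against 130 bp in the other 229 members. However, the input was also higher there, with a median of 0.764 normalized reads against 0.182 in the others. In the 59 clusters with more than 3 input reads, the strongest peak held a median of 62.9% of the ChIP reads and 77.8% of the input reads. These 59 were selected by their input, so the latter share does not extend to the other clusters. The median log2 ratio was 5.52 in the strongest peaks and 5.28 in the others, although in 54 clusters another peak than the strongest had the highest ratio. Pooled over peaks, ChIP over input went the other way, at 74.3 in the strongest peaks and 126.8 in the others. The peaks were called on the ratio of ChIP to input, so a peak with few reads could be listed only with little input. The pooled values are therefore a description, and their difference was not tested.

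A few clusters held a large part of the reads. The median cluster had 150.3 normalized ChIP reads, and the range was 46.6 to 2260. The 5 clusters with the most reads, at Socs36E, pnt, an unnamed place on 3R, lazaro (laza) and an unnamed place on 2L, held 17.7% of all reads in clusters, and the first 10 held 25.3%. Of the 37 clusters with a member in the first 10% of the list, 2 had more than 1 such member. Peaks of this rank made up 9.80% of the members and 9.95% of all listed peaks. Whether they shared clusters more or less often than this share would give was not tested. More than 1 peak above 200 reads was found in 4 clusters, at Socs36E, pnt, kay and Not1.

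Gene names were given only where an interval of the study's partial list of targets overlapped a peak. Of the 51 autosomal intervals of that list other than hyd, 42 (82.4%) were members, in 19 clusters at 19 of 27 genes, and 14 genes had 2 or more members. The list was selected by the authors from these data, so this share is not independent of the clustering. At Drs, zip, siz, nub, dia, MTA1-like, par-1 and CG5953, the 9 remaining intervals were isolated peaks, the strongest at nub with 445.7 reads. The other 150 clusters, and 356 members, carry no gene name here.

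Components of the JAK/STAT pathway had clusters at Socs36E and Stat92E. Socs36E, the suppressor of cytokine signaling that limits the pathway in a negative feedback loop, had the cluster with the most reads, 2260 ChIP against 29.1 input reads in 5 peaks within 10620 bp on 2L. From the lowest position on, the peaks held 310.4, 109.9, 329.9, 1420 and 89.1 ChIP reads, so that the peak from 18148850 to 18149199, in the first intron, held 62.9% (exact 95% binomial interval 60.8% to 64.9%). The gaps were 2930, 740, 4250 and 1500 bp. Stat92E, the gene of the factor itself, had peaks of 67.2 and 367.8 reads in the first intron on 3R, and another peak of 55.9 reads, from 16390360 to 16390519 and not in the target list, lay 14090 bp further on. The strongest of the 3 held 74.9% of the reads (70.9% to 78.7%), the largest share among the clusters of 3 or more peaks.

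Windpipe (wdp), which encodes a transmembrane protein with leucine-rich repeats, belonged to a cluster of 5 peaks on 2R. Its peaks in the second intron, 190 bp apart, held 177.1 and 57.5 ChIP reads against 3.75 and 0.364 in the input, and the peak upstream of the gene held 110.8 against 0.255. Further peaks of 56.8 and 43.2 reads, which the target list does not assign to wdp, lay 11380 bp beyond the upstream peak, from 18212570 to 18212689, and another 11100 bp on, from 18223790 to 18223909. The reads were spread more evenly than at Socs36E. The strongest peak held 39.8% (35.2% to 44.5%), and joining up to 10 kb left only the 3 wdp peaks together.

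Genes of other transcription factors had 4 clusters. The cluster of pnt, which encodes ETS factors of the EGFR pathway, had 4 peaks over 40910 bp on 3R with 341.6, 834.6, 128.1 and 93.4 ChIP reads from the lowest position on. The peak of 834.6 reads held 59.7% of the reads but also 23.3 of the 29.3 input reads, and its fold of 35.9 was lower than the 136.2 of the peak of 341.6 reads, the highest fold among the members with more than 3 input reads, which rests on 2.51 normalized input reads. The cluster depended on the limit, since its long gaps of 19880 and 19940 bp were just inside it. At kay, which encodes the AP-1 subunit Fos, 3 peaks of 73.4, 237.5 and 211.4 reads lay in the first intron within 7760 bp on 3R, and the stronger ones shared the reads almost equally, with 45.5% (41.2% to 49.9%) and 40.5%.

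At the remaining factors a single peak held most of the reads. The peak of chinmo, a BTB zinc finger gene needed for stem cell maintenance in the testis, had 112.8 reads and was a member only through a peak of 38.1 reads 18900 bp away. At mld, a zinc finger gene required for ecdysone synthesis, peaks of 136.4 and 46.3 reads lay 12050 bp apart.

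**Figure D5:**
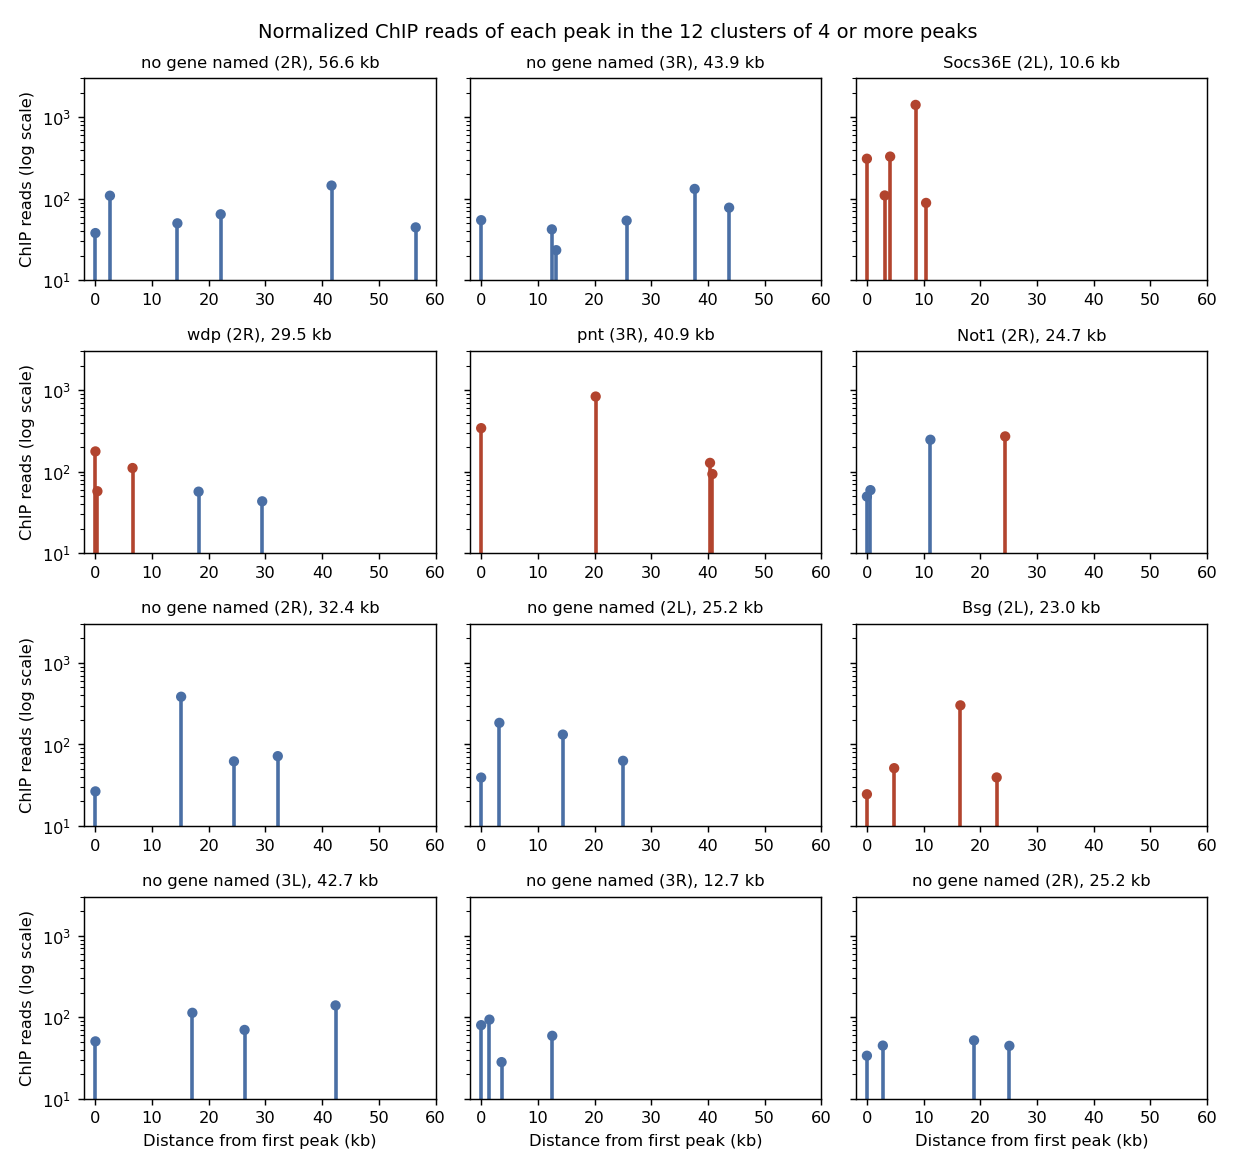
Normalized ChIP reads (y axis, log scale) of each peak against its distance in kb from the start of the first peak (x axis) in the 12 clusters of 4 or more peaks; red marks peaks that belong to a gene of the study's target list and blue marks other peaks, and panel titles give gene, arm and span. Socs36E is the most compact, with 5 peaks in 10.6 kb and one peak at 1420 reads, while both clusters of 6 peaks span more than 40 kb with no peak above 145.4 reads.

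Genes of the cell surface, the cytoskeleton and lipid metabolism included the most unequal pairs of all, at laza and neb. At laza, which encodes a lipid phosphate phosphatase, a peak of 829.3 reads in the 3′ UTR, from 22451700 to 22451989 on 3L, stood beside a peak of 24.8 reads 12710 bp away, and held 97.1% (95.7% to 98.1%), the largest share of all pairs. At nebbish (neb, a kinesin gene) the peaks had 354.5 and 35.6 reads, so that 90.9% (87.4% to 93.5%) were in the peak of the first intron. Basigin (Bsg), an immunoglobulin family membrane protein gene, had 4 peaks over 23010 bp on 2L with 24.5, 51.2, 301.9 and 39.4 reads, and the peak in the second intron held 72.4%. The peaks of chickadee (chic), the profilin gene, were closer to each other in strength, with 110.4 and 59.1 reads 4430 bp apart.

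A survival gene and an immune gene had a cluster each. The peak of Drs, another immune gene of the target list, was isolated and had 109.4 reads. Diap1 (also called thread, th), which encodes an inhibitor of apoptosis, had peaks of 44.6 and 111.8 reads 2150 bp apart on 3L, and another peak of 74.5 reads lay 11000 bp further, so that the strongest held 48.4% (41.9% to 55.1%). The peaks assigned to PGRP-LA, a peptidoglycan recognition protein gene, were 11440 bp apart and had 60.3 and 28.0 reads, 88.3 in all, with folds of at least 14.6 and at least 13.9. The study places both upstream of the gene.

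Of the other target genes, Not1, the scaffold of the CCR4-NOT deadenylase complex, had 1 peak of 270.7 reads in a cluster of 4 on 2R. An unassigned peak of that cluster, from 5439950 to 5440149, had almost as many ChIP reads, 246.3, but more input, 8.11 against 2.98 reads, and a fold of 30.4 against 90.8. Both Samuel peaks and another peak lay 16550 and 16620 bp apart and had 59.5 to 76.8 reads. In contrast, single peaks dominated at CG5399 (251.9 and 52.7 reads), CG31343 (203.4 and 54.0), CG6051 (191.4 and 76.5) and Bhmt (also called CG10623), where a peak of 244.1 reads in the 5′ UTR stood beside one of 66.4.

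The clusters with the most peaks had no peak above 200 reads. Both held 6 peaks and no gene of the target list. The first, on 2R from 15009610 to 15066229, had 38.0, 109.2, 50.1, 64.6, 145.4 and 44.6 ChIP reads from the lowest position on. The other, on 3R from 12726590 to 12770459, had 54.7, 42.2, 23.4, 54.0, 132.2 and 77.9. Their 451.9 and 384.4 reads together were less than the 2260 of the Socs36E cluster, although they spanned 56620 and 43870 bp.

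The lowest share in a strongest peak, over all cluster sizes, was on 2R from 9845970 to 9871219. Its 4 peaks had 33.8, 44.9, 52.1 and 44.6 reads, and the strongest held 29.7% (22.9% to 36.9%), an interval that includes the equal share of 25%. Its input was at most 0.836 normalized reads in any peak.

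Unnamed pairs were among the clusters with the most reads. On 3R, a peak from 8331440 to 8331639 had 873.8 ChIP reads and 27.4 input reads, the highest input of all members, with a fold of 31.9 and a log2 ratio of 5.01. Its neighbour, 3100 bp away, had 181.6 ChIP reads against 1.71, at least 40.7-fold, and a higher log2 ratio of 6.16. Here the peak with more reads was the one with the lower enrichment. Over all 169 clusters, the strongest peak had the highest log2 ratio in 115 and another peak had it in 54. On 2L, the peak from 8339770 to 8340069 had 565.6 reads against 7.75, a fold of 73.0, and held 88.7% (86.0% to 91.1%) of the reads of its pair. These genes were not looked up, since no annotation of the build of the list was used here.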

How the data were processed

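Chromatin of adult midguts was sequenced as 1 STAT92E ChIP library and 1 input library. The submitters' processing notes name CASAVA 1.8, Bowtie and build dm3; the peak caller is not given in the sources used here. The authors deposited 1 list of peaks. The normalized signal deposited by the authors is the reads of each library in the peak; the column marked I was taken as input and M as ChIP. The authors also deposited the largest log2 ratio, the -log10 of the smallest Poisson p (capped at 100), an FDR as the p-value type of the list, and a test statistic, a score that was not used here beyond the list's order. All other columns were positions or lengths.

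Values lay on steps of 0.0625 (ChIP) and 0.0364 (input). Taking 16 steps as 1 read, an input read weighs 0.582. Fold is ChIP over input, or, at or under 3 input reads, a lower bound with the input set to its one-sided 95% Poisson limit. Peaks were joined at 20 kb, tested on simulated data (200 of 200 groups recovered). Reads were rounded for exact (Clopper-Pearson) intervals. Alternatives were other joining distances, stricter thresholds and other measures of strength.

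Named are all clusters with a target gene, the 5 with the most peaks and with the most reads, the closest pairs, the extremes of sharing and the gaps next to 20 kb. Members and rules were chosen with earlier results of these data known. Symbols of all 30 target genes were matched in RefSeq (Release 6, names only); no genome of dm3 was used, so sequences, motifs and other genes were not analysed here. Python 3.11.15, numpy 2.4.6, pandas 2.3.3, scipy 1.17.1 and matplotlib 3.10.9 were used.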

Additional observations from a re-analysis of the deposited data

How the results depend on the processing

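The joining distance set most values. At 5, 10 and 50 kb there were 143, 245 and 660 clustered peaks, and the clustered share of autosomal ChIP reads was 18.2%, 29.5% and 68.8%. At 5 kb 67 clusters remained, and at 10 and 50 kb there were 115 and 234. With only peaks of an FDR below 0.001, 265 peaks were clustered, since fewer peaks entered. With the hyd peaks kept, 86.2% of the reads were clustered. Among alternatives added after the data had been seen, leaving out the 5 clusters with the most reads gave 42.0%, and measuring between summits gave 394 peaks in 168 clusters. The median share of the strongest peak stayed between 56.6% and 65.9%, and the ratio of median ChIP reads of clustered to isolated peaks between 0.962 and 1.10 (1.03 in the main setting), under the alternatives tried for each, so the direction of the latter is not settled. The 42 members in the target list were found under both other rules of overlap. No paired analysis was possible because there was 1 ChIP and 1 input library and no test between groups. STAT92E motifs were not run for lack of a genome of this build. The low input limits most folds to a bound.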
